A study of Mus musculus with 20 samples.

Results

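The comparison described here set all knockout libraries of the study, of both genotypes and both tissues, against all controls, to find changes that loss of either corepressor shared. Its members were the 12 libraries labelled NCoR1-KO or SMRT-KO, chosen by genotype label alone, of 20 libraries in all, and the other 8 were labelled control. The mice were at postnatal day 21, and RNA came from 2 regions, the hippocampus and the amygdala. In each tissue there were 3 NCoR1-KO, 3 SMRT-KO and 4 control libraries. Per the study's design text, the knockouts came from crosses of a pan-neuronal Cre line, Snap25-IRES2-cre, with mice carrying floxed alleles of NCoR1 or of SMRT. In that line the Cre recombinase is made from the Snap25 gene, which is active across neurons, so the driver is aimed at neurons and the dissected tissue also held other cells. The labels do not say whether controls carried Cre, a floxed allele or neither. They also do not say that libraries of a group came from separate animals, so the p-values describe the spread among libraries, part of which may be technical.

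NCoR1 and SMRT are related corepressor proteins. Both bind nuclear receptors such as the thyroid hormone, retinoic acid and REV-ERB receptors and hold them in complexes with the histone deacetylase HDAC3, which keeps target genes low. Because the proteins share partners and receptors, genes repressed through either one could move in the same direction in both knockouts.

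The authors deposited TPM values, a level scaled for transcript length and for the library total, so that each library sums to the same total and its sequencing depth is unknown. Between 13787 and 14509 genes reached 1 TPM in a library. A gene was tested if it reached 1 TPM in at least 3 libraries of each tissue, which 14210 genes did. Differences are knockout minus control on the log2(TPM + 1) scale with tissue as a covariate, and this scale understates the change of genes of low level. In whole tissue, fewer cells of a type and less RNA per cell cannot be told apart. Tissue labels were checked in the controls, across tables that were normalized separately. Of 12 markers of the hippocampal CA fields 11 were higher in hippocampus, and of 11 dentate gyrus markers 8 were, whereas 9 of 13 amygdala markers were higher in amygdala. A library's score over a list of markers was its median log2 deviation from the tissue mean. By scores beyond 1 on lists of cell types and regions, or beyond 2 on the choroid plexus list, 5 libraries stood apart. They were SMRT-KO 3 and control 2 of amygdala, and NCoR1-KO 3, SMRT-KO 2 and control 2 of hippocampus. Hippocampus NCoR1-KO 3 did so by the choroid plexus list alone, where hippocampus scores ran from -1.53 to 2.51 in knockouts. A cutoff of 1 there would have marked further libraries, and the rule was set after the values were seen. Rn45s, a precursor of ribosomal RNA, made up 0.953% to 1.66% of a library in hippocampus knockouts, against 1.87% to 3.28% in hippocampus controls, without overlap. In amygdala its share was 1.23% to 3.26% in knockouts, against 1.25% to 2.15% in controls. With TPM rescaled without Rn45s the pooled comparison still gave 1 call, the same gene.

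Of the 14210 genes tested, 1 differed between the pooled knockouts and control at an adjusted p under 0.05, or 0.00704%. It was Snap25, the gene that carries the Cre driver. Snap25 encodes a membrane protein of the SNARE complex that fuses synaptic vesicles with the membrane at nerve endings. It lies on the plus strand at chr2:136713453-136782428 (GRCm38). Snap25 fell in both knockouts, in both tissues and by nearly the same amount.

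In hippocampus, Snap25 stood at 1273, 1346 and 1257 TPM in the NCoR1-KO libraries 1, 2 and 3. It stood at 1247, 1090.1 and 1699 TPM in the SMRT-KO libraries 1, 2 and 3, against 2236, 2204, 2329 and 2249 TPM in controls 1 to 4. The knockout and control libraries of hippocampus did not overlap, and SMRT-KO 3 lay nearest to the controls. In amygdala it stood at 1201, 1123 and 1228 TPM in NCoR1-KO and at 1053, 1207 and 1114 TPM in SMRT-KO, against 1927, 2154, 1825 and 2228 TPM in control. Again no knockout library reached the lowest control. The pooled knockouts averaged 1319 ± 204 TPM in hippocampus (SD, n = 6), against 2255 ± 53.1 TPM in control (SD, n = 4), or 58.5% of control. In amygdala they averaged 1154 ± 68.1 TPM (SD, n = 6), against 2033 ± 189 TPM in control (SD, n = 4), or 56.8% of control.

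**Figure D1:**
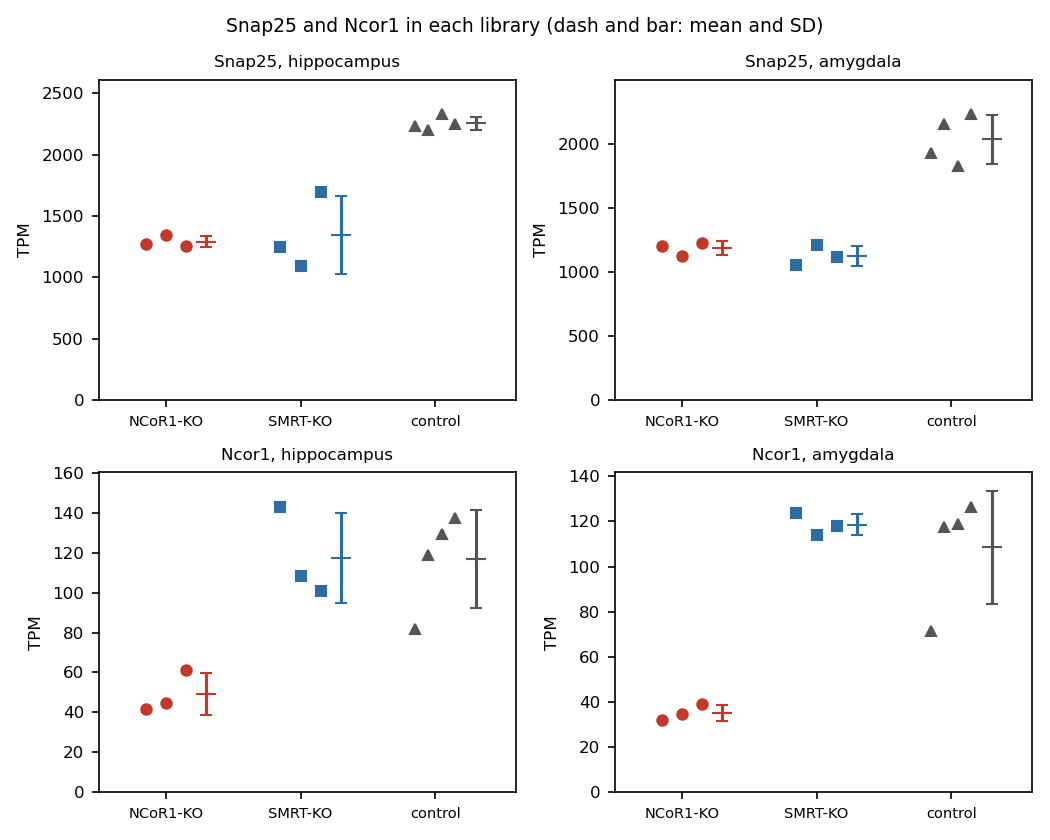
TPM of Snap25 (top) and Ncor1 (bottom) in each library of hippocampus (left) and amygdala (right), with 1 point per library and the mean and SD of each group as dash and bar. Snap25 was below all controls in all 12 knockout libraries, and Ncor1 was below all controls in the NCoR1-KO libraries.

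The log2 difference of Snap25 over both tissues was -0.80 ± 0.06 (SE; 95% interval -0.93 to -0.67), with limma's adjusted p = 3.09e-07. An exact two-sided permutation test within tissues gave p = 2.27e-05, the smallest that its 44100 arrangements allow. Against the 8 shared controls the difference was -0.79 ± 0.07 in NCoR1-KO (adjusted p = 1.92e-05) and -0.81 ± 0.07 in SMRT-KO (adjusted p = 1.24e-05). NCoR1-KO minus SMRT-KO was 0.02 with a 95% interval of -0.14 to 0.18.

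By tissue, the fall of Snap25 was -0.79 ± 0.09 in hippocampus (adjusted p = 0.000402) and -0.81 ± 0.09 in amygdala (adjusted p = 0.000236), in a fit that shares 1 estimate of the spread. Hippocampus minus amygdala was 0.03 with a 95% interval of -0.23 to 0.29. Fitted on the hippocampus libraries alone the difference was -0.79 ± 0.10 and did not pass (adjusted p = 0.112). Without the 5 libraries that stood apart the pooled difference was -0.75 (adjusted p = 0.000104), and in hippocampus it was -0.72 and just missed the threshold (adjusted p = 0.05003). Leaving out any 1 library gave pooled differences from -0.84 to -0.78, and Snap25 passed each time. Loss of NCoR1 or SMRT and the presence of the driver allele cannot be told apart for this gene, since the labels give every knockout the driver and do not give the controls' alleles.

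Ncor1, the gene named by the first knockout, matched the NCoR1-KO labels. Ncor1 lies on the minus strand at chr11:62316426-62458541. It stood at 41.9, 44.5 and 61.1 TPM in hippocampus NCoR1-KO and at 143, 108 and 101 TPM in hippocampus SMRT-KO, against 81.6, 119, 129 and 137 TPM in control. In amygdala it stood at 32.1, 34.6 and 39.0 TPM in NCoR1-KO and at 124, 114 and 118 TPM in SMRT-KO, against 71.3, 117, 119 and 127 TPM in control. The NCoR1-KO libraries lay below all others of their tissue, and control 1 was the lowest control in both tissues. Ncor1 fell by 1.39 ± 0.14 on the log2 scale in NCoR1-KO over both tissues, with an exact permutation p of 0.000816, the smallest of 1225 arrangements. In SMRT-KO its difference was 0.09 ± 0.14. Pooled, Ncor1 differed by -0.65 ± 0.29 and did not pass (adjusted p = 0.402).

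Genes beside Snap25 gave no call in the pooled comparison. The 4 nearest tested genes were Lamp5 and Pak7 before it and Mkks and Slx4ip after it. Their pooled log2 differences were 0.04 ± 0.15, 0.11 ± 0.09, 0.06 ± 0.05 and -0.06 ± 0.08, and none passed. Of the 121 tested genes within 10 Mb of Snap25, 0 passed in limma's pooled fit, and 10 (8.26%) had an unadjusted p under 0.05, against 11.4% of all tested genes. Of the 246 tested genes within 10 Mb of Ncor1, 0 passed, and 7 higher and 20 lower genes had an unadjusted p under 0.05, a share close to the 11.4% of all genes. Fitted by knockout, 1 of the 121 genes around Snap25 was called in SMRT-KO, against 0.464% of all genes, and 0 in NCoR1-KO. Of the 246 genes around Ncor1, 0 were called in NCoR1-KO, where the lowest difference was -1.65. Around Snap25, 16.5% had an unadjusted p under 0.05 in SMRT-KO and 7.44% in NCoR1-KO. Around Ncor1 16.7% did in NCoR1-KO. The share of all genes at that threshold was not counted in the fits by knockout.

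The partners of Snap25 in vesicle fusion did not pass with it. The list of SNARE fusion genes held 24 tested genes, of which 15 had a pooled difference above 0 and 9 below, with a median of 0.02, against -0.02 over all genes. Snap25 was the only member called, and the next by p was Napa, which encodes a protein that helps take spent SNARE complexes apart. Napa averaged 214 ± 8.33 TPM in hippocampus knockouts (SD, n = 6), against 197 ± 7.22 TPM in control (SD, n = 4), and 178 ± 13.8 against 162 ± 9.05 TPM in amygdala. Its pooled difference of 0.13 ± 0.04 did not pass (adjusted p = 0.315). The paralogs Snap29 and Snap47 differed by 0.05 ± 0.04 and 0.05 ± 0.05 and did not pass. Among 26 other genes of synaptic vesicles and release, 15 lay above 0 and 11 below, with a median of 0.01 and 0 calls.

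Beyond Snap25 the pooled knockouts gave 0 further calls in limma's fit, and the smallest other adjusted p was 0.217. At an unadjusted p under 0.05 there were 1613 genes (11.4%), of which 384 were higher in knockouts (2.7%) and 1229 were lower (8.65%). The excess of lower values also showed in the sign of all genes, of which 41.5% had a difference above 0, with a median of -0.02. The data bound how large an unseen shared change in whole tissue could be on the log2(TPM + 1) scale. That scale understates the change of genes of low level, and the intervals treat the 20 libraries as independent. The median SE was 0.06, and for 13094 genes (92.1%) the 95% interval of the pooled difference lay within 0.5 of 0 on the log2 scale. For 14051 genes (98.9%) it lay within 1 of 0.

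**Figure D2:**
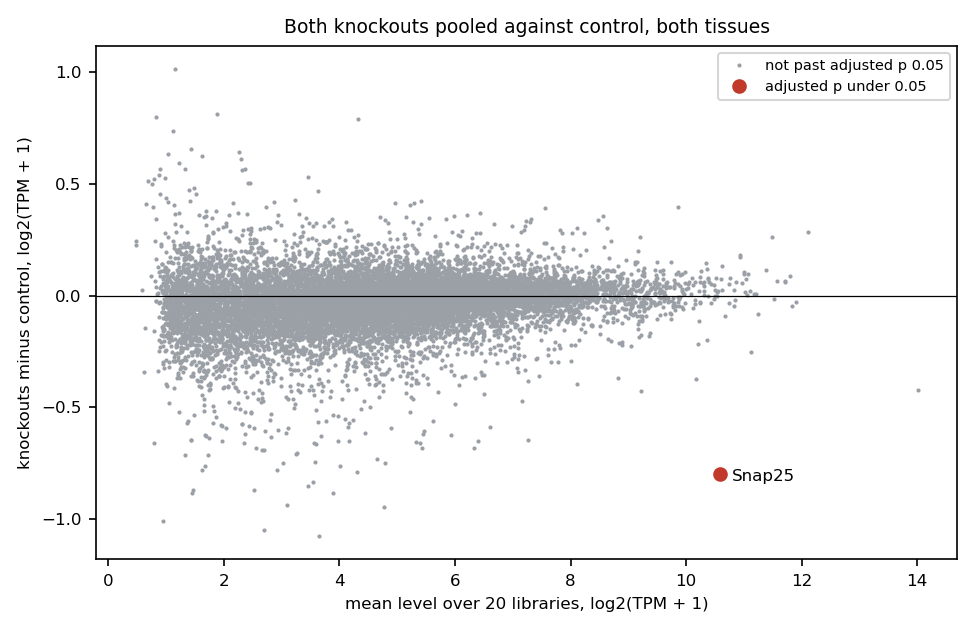
Pooled difference, knockouts minus control on the log2(TPM + 1) scale, of the 14210 tested genes (vertical axis) against their mean level over the 20 libraries on the same scale (horizontal axis). Snap25, in red at -0.80, is the only gene with an adjusted p under 0.05.

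Shared direction was counted without a test. In 3240 genes (22.8%) the difference from control had 1 sign in all 4 combinations of knockout and tissue, higher in 1102 (7.76%) and lower in 2138 (15%). The knockouts share their controls, so their differences from control are not independent. In 4 genes (0.0281%) every knockout library lay below every control in both tissues, and in 0 genes above. These 4 were Snap25, Rbm33, Wsb1 and Trub1.

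Rbm33, which encodes an RNA-binding protein, ranged from 25.2 to 36.9 TPM with a median of 34.0 in hippocampus knockouts, against 43.6, 39.6, 38.6 and 40.5 TPM in control. In amygdala it ranged from 32.0 to 37.7 TPM with a median of 35.8 in knockouts, against 39.9 to 49.6 TPM in control. The groups did not overlap in either tissue, and hippocampus SMRT-KO 3 was the lowest library. The pooled difference of -0.29 ± 0.06 did not pass (adjusted p = 0.270), far from the threshold of 0.05. Rbm33 and Mrpl36 were the 2 named genes of smallest p after Snap25. Against the shared controls Rbm33 differed by -0.22 ± 0.07 in NCoR1-KO and by -0.35 ± 0.07 in SMRT-KO, and only the second passed (adjusted p = 0.0302). That call was lost without the 5 libraries that stood apart, and without amygdala SMRT-KO 3, where Snap25 was the only SMRT-KO call. NCoR1-KO minus SMRT-KO was 0.14 with a 95% interval of -0.01 to 0.29.

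Wsb1, a substrate receptor of a ubiquitin ligase, ranged from 84.4 to 99.8 TPM with a median of 95.7 in hippocampus knockouts, against 99.9 to 105 TPM in control. In amygdala it ranged from 100.3 to 117 TPM with a median of 108 in knockouts, against 119 to 133 TPM in control. The groups did not overlap, and in hippocampus the highest knockout library, at 99.84 TPM, lay just under the lowest control, at 99.89 TPM. Trub1, which makes pseudouridine in RNA, ranged from 21.9 to 24.5 TPM in hippocampus knockouts, against 24.8 to 28.1 TPM in control. In amygdala it ranged from 20.8 to 26.4 TPM in knockouts, against 27.2 to 31.7 TPM in control. The pooled differences were -0.17 ± 0.04 for Wsb1 and -0.19 ± 0.05 for Trub1, and neither passed (adjusted p = 0.270 for each).

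The other genes of smallest p that lay lower in knockouts were Cep89, Fam184b and Rimklb. Cep89, a centrosome protein, averaged 14.3 ± 0.35 TPM in hippocampus knockouts, against 16.5 ± 1.35 TPM in control, and 14.7 ± 0.999 TPM in amygdala knockouts, against 16.7 ± 0.732 TPM in control (SD, n = 6 and 4 in each tissue). Its pooled difference was -0.18 ± 0.04. Fam184b ranged from 5.51 to 6.96 TPM in hippocampus knockouts, against 7.30 to 8.10 TPM in control, and from 7.81 to 10.3 TPM in amygdala knockouts, against 9.73 to 12.9 TPM in control, a difference of -0.27 ± 0.06. Rimklb, an enzyme that joins glutamate to N-acetylaspartate or citrate, differed by -0.26 ± 0.06, with 34.0 ± 3.88 TPM in hippocampus knockouts, against 40.3 ± 1.94 TPM in control. Cep89 and Fam184b did not overlap between knockouts and control in hippocampus and overlapped in amygdala, and Rimklb overlapped in both.

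On the higher side the 6 genes of smallest p with 1 sign in all 4 combinations were Mrpl36, Gde1, Atg9a, Wdr8, Rgs8 and Abcf2, and each had an adjusted p of 0.270. Mrpl36, a protein of the mitochondrial ribosome, ranged from 48.5 to 52.3 TPM in hippocampus knockouts, against 43.5 to 48.0 TPM in control. In amygdala it ranged from 46.1 to 52.1 TPM in knockouts, against 40.6 to 47.0 TPM in control, a pooled difference of 0.15 ± 0.03. Gde1, a phosphodiesterase that cleaves glycerophospholipid derivatives, ranged from 341 to 363 TPM in hippocampus knockouts, against 313 to 332 TPM in control. Both genes were separate in hippocampus, and in amygdala the highest control reached into the knockouts. Rgs8, a regulator of G protein signalling, had the largest difference of the 6, at 0.23 ± 0.06, with 59.2 to 73.4 TPM in hippocampus knockouts, against 49.3 to 55.5 TPM in control. Against the shared controls Rgs8 differed by 0.14 ± 0.05 in NCoR1-KO and by 0.32 ± 0.05 in SMRT-KO, where it passed (adjusted p = 0.0188). This call too was lost without the 5 libraries and without amygdala SMRT-KO 3. Differences were 0.12 ± 0.03 for Gde1, 0.10 ± 0.02 for Atg9a, which carries lipid to forming autophagosomes, 0.19 ± 0.04 for Wdr8 and 0.14 ± 0.04 for Abcf2, an ATP-binding cassette protein without membrane spans.

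**Figure D3:**
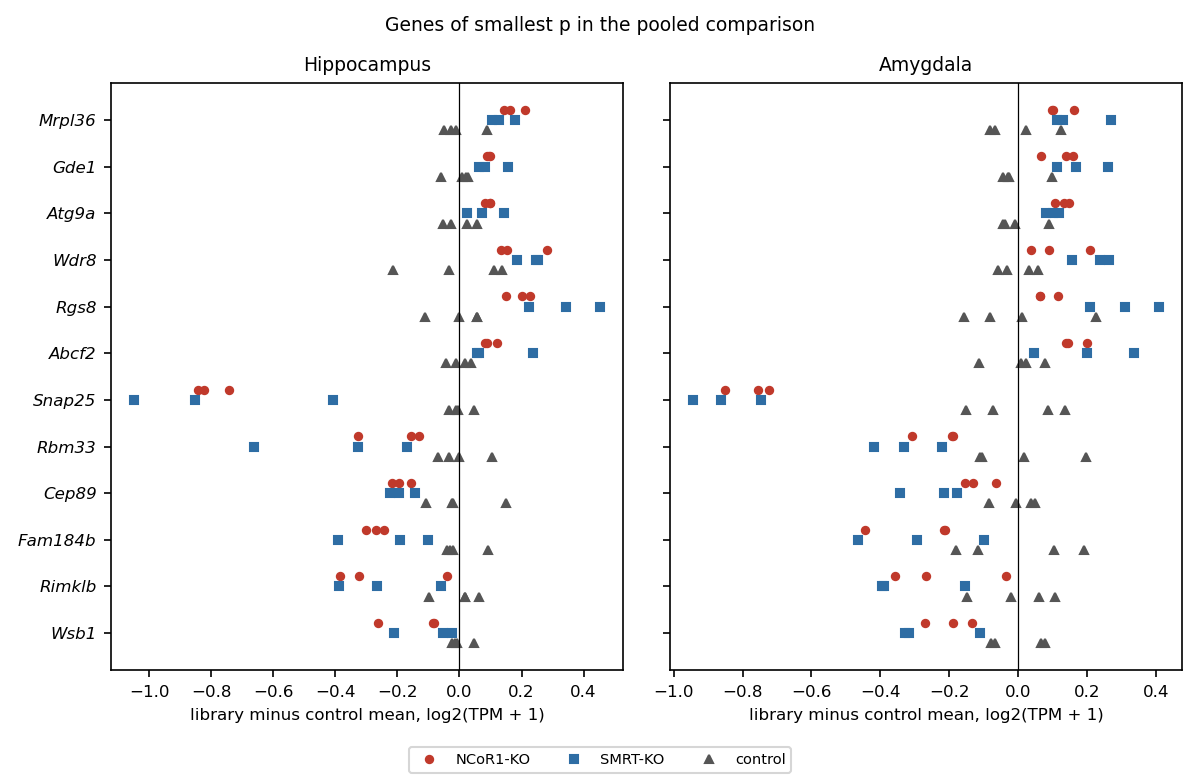
Each library's level minus the control mean of its tissue on the log2(TPM + 1) scale, for the 6 higher and 6 lower genes of smallest p in the pooled comparison, Snap25 included, among those with 1 sign in all 4 combinations of knockout and tissue. Red circles are NCoR1-KO, blue squares SMRT-KO and grey triangles control, and for Snap25, at a pooled -0.80, the knockout libraries lie lowest.

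The genes whose levels followed Snap25 most closely over the 20 libraries, after centring each tissue, were Nim1 (Pearson r = 0.775), Tada2a (r = 0.755), Cep89 (r = 0.755) and Arntl2 (r = 0.745). All points share the knockout and control split, so the values describe that split and carry no p. Tada2a encodes an adaptor of histone acetyltransferase complexes and Arntl2 a clock transcription factor. Arntl2 averaged 5.28 ± 0.827 TPM in hippocampus knockouts (SD, n = 6), against 6.70 ± 0.576 TPM in control (SD, n = 4). In amygdala it averaged 5.62 ± 0.842 TPM in knockouts, against 7.12 ± 0.19 TPM in control. In hippocampus its highest knockout value, 5.84 TPM, lay below the lowest control value, 6.22 TPM, and in amygdala the groups overlapped.

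The machinery that NCoR1 and SMRT belong to gave 0 pooled calls. Of 20 genes on the list of corepressor complex partners 8 lay above 0 and 12 below, with a median of -0.03. The list holds Ncor1 itself, a targeted gene, at -0.65. At an unadjusted p under 0.05 there were 2 higher genes, against 2.7% of all genes. On the lower side there were 3, Ncor1 included, against 8.65%. Of the other members Tle3, a Groucho-type corepressor, stood at 0.18 ± 0.06 and the transcriptional repressor Bcl6 at 0.19 ± 0.08. Gps2, a subunit of the NCoR1 and SMRT complexes, stood at -0.15 ± 0.06. Gps2 averaged 23.7 ± 2.76 TPM in hippocampus knockouts, against 25.7 ± 1.97 TPM in control, and 22.1 ± 1.35 TPM in amygdala knockouts, against 25.5 ± 3.83 TPM in control. Of 24 chromatin and histone deacetylase genes 20 lay below 0, with a median of -0.07, and 6 had an unadjusted p under 0.05, all lower, against 8.65% of all genes. Among them were Tet2, which oxidizes methylated cytosine, at -0.30 ± 0.08, the chromatin remodeller Chd8 at -0.16 ± 0.05 and the deacetylase Hdac6 at -0.12 ± 0.04, with adjusted p from 0.270 to 0.345. Tet2 averaged 16.2 ± 2.37 TPM in hippocampus knockouts, against 21.4 ± 2.55 TPM in control, and 21.4 ± 2.29 TPM in amygdala knockouts, against 25.0 ± 3.51 TPM in control.

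Nuclear receptors, the proteins through which both corepressors act, split evenly. Of 34 tested genes 18 lay above 0 and 16 below, with a median of 0.02 and 0 calls. Thra, the main thyroid hormone receptor of brain, averaged 586 ± 69.9 TPM in hippocampus knockouts, against 632 ± 71.7 TPM in control, and 529.6 ± 41.5 TPM in amygdala knockouts, against 585 ± 36.2 TPM in control. Its pooled difference of -0.13 ± 0.06 did not pass. The estrogen receptor Esr1, at -0.57 ± 0.22, ranged from 0.57 to 0.91 TPM in hippocampus knockouts, against 0.93 to 5.31 TPM in control, and from 1.97 to 8.05 TPM in amygdala knockouts, against 4.09 to 9.29 TPM in control. The retinoic acid receptor Rara stood at 0.18 ± 0.08.

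Targets of those receptors showed no shared call either. Of 23 tested genes that respond to thyroid hormone, 15 lay above 0, with a median of 0.14, and 6 had an unadjusted p under 0.05, all higher, against 2.7% of all genes. They were Klf9, Nefm, Sema7a, Dbp, Rcan2 and Nefh, with adjusted p from 0.345 to 0.421. Klf9, a direct target of the thyroid hormone receptor, was the one of smallest p and had nearly equal differences in both knockouts, 0.17 in NCoR1-KO and 0.18 in SMRT-KO. It ranged from 189 to 224 TPM in hippocampus knockouts, against 182 to 200.1 TPM in control, and from 175 to 253 TPM in amygdala knockouts, against 162 to 177 TPM in control. The groups overlapped in both tissues. The median over the list was 0.02 in NCoR1-KO and 0.18 in SMRT-KO. At an unadjusted p under 0.05 there were 2 higher and 3 lower genes in NCoR1-KO, and 9 higher and 1 lower in SMRT-KO. By tissue there were 0 in hippocampus, against 5.75% of all genes, and 6 in amygdala, all higher, against 6.66%. Of 18 targets of retinoid and sterol receptors 9 lay above 0 and 9 below, and of 23 genes of PPAR response and fatty acid oxidation 12 lay above and 11 below, with medians of 0.00 in each list.

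Genes of neuronal signalling gave no pooled call. Of 26 glutamate receptor genes 11 lay above 0, with a median of -0.03, and of 20 GABA genes 9 did, with a median of -0.04. Of 35 potassium channel genes 22 lay above 0, with a median of 0.04, and of 23 sodium and calcium channel genes 12 did, with a median of 0.00. At an unadjusted p under 0.05, 2.7% of all genes were higher and 8.65% lower. By the same threshold 1 glutamate receptor gene was higher and 4 were lower, and 0 GABA genes were higher and 4 lower. Of the potassium channel genes 4 were higher and 4 lower. Of the sodium and calcium channel genes 2 were higher and 6 lower. Of the lower ones Scn3a, a sodium channel that is prominent before adulthood, was the one of smallest p, at -0.33 ± 0.09 (adjusted p = 0.297). Scn3a averaged 21.7 ± 4.73 TPM in hippocampus knockouts, against 28.5 ± 2.83 TPM in control, and 30.5 ± 3.20 TPM in amygdala knockouts, against 36.7 ± 3.57 TPM in control. The accessory subunit Scn2b stood on the other side, at 0.12 ± 0.05.

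The list that lay lowest among those of at least 5 genes was interferon response and antigen presentation, with 17 of 18 tested genes below 0 and a median of -0.28. It was -0.33 in NCoR1-KO and -0.27 in SMRT-KO, against shared controls. Of its genes 0 were called, and 6 had an unadjusted p under 0.05, all lower, against 8.65% of all genes. Among them were Tap1, which loads peptides for antigen presentation, at -0.29 ± 0.09, and the interferon-induced genes Irf7 at -0.41 ± 0.18 and Isg15 at -0.57 ± 0.27. Isg15 averaged 2.21 ± 0.834 TPM in hippocampus knockouts, against 5.10 ± 2.02 TPM in control, and 5.45 ± 3.58 TPM in amygdala knockouts, against 6.40 ± 3.10 TPM in control. These are low levels, at which the log2(TPM + 1) scale compresses change. A library's score, the median over the list of its log2 deviation from the tissue mean, ranged from -0.43 to 0.14 in hippocampus knockouts, against -0.04, 0.03, 0.17 and 0.79 in control. In amygdala it ranged from -0.30 to 0.24 in knockouts, against -0.34, 0.05, 0.31 and 0.64 in control. The libraries numbered control 1 held the highest score of their tissue, and without the hippocampus one the median over the list was -0.21. Without the 5 libraries that stood apart it was -0.47. Microglia markers, which stand for the main immune cell of brain, lay below 0 in 13 of 15 genes, with a median of -0.08. Against the shared controls the microglia median was -0.19 in NCoR1-KO, with 15 of 15 below 0, and 0.04 in SMRT-KO, with 11 of 15 above 0. The part of these cells in the interferon values was not tested.

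Markers of neuron types and regions gave no pooled call, and several of their medians moved without the libraries that stood apart. Those libraries were marked by scores on cell type and region lists, so part of such a move is built in. The median of CA field markers was 0.09, and 0.10 without them. That of dentate gyrus markers was -0.08, and -0.12 without them. Of 14 interneuron markers 12 lay below 0, with a median of -0.17, led by Gad2, which makes GABA, at -0.28 ± 0.10. Gad2 ranged from 73.4 to 101 TPM in hippocampus knockouts, against 105 to 151 TPM in control, and from 144 to 187 TPM in amygdala knockouts, against 145 to 225 TPM in control. It was separate in hippocampus and overlapped in amygdala, and without the 5 libraries that stood apart the median over the interneuron list was -0.04. By tissue that median was -0.30 in hippocampus, with 13 of 14 markers below 0, and 0.04 in amygdala, with 9 of 14 above 0. Of 19 neuropeptide genes 16 lay below 0, with a median of -0.11, which without those libraries was -0.01. By tissue the neuropeptide median was -0.37 in hippocampus, with 16 of 19 below 0, and 0.12 in amygdala, with 15 of 19 above 0. The difference between tissues was not tested for either list. Of 13 amygdala markers 12 lay below 0, with a median of -0.12, which without them was -0.06. Excitatory neuron markers lay above 0 in 7 of 9 genes, with a median of 0.02, which without those libraries was 0.10.

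The myelin list had the highest pooled median, with higher values in SMRT-KO and not in NCoR1-KO. All of its 18 markers lay above 0, with a pooled median of 0.28, and 0 of them had an unadjusted p under 0.05. Against the shared controls the median was -0.05 in NCoR1-KO, with 5 above 0, and 0.60 in SMRT-KO, with 18 above 0. In SMRT-KO 16 had an unadjusted p under 0.05, and in NCoR1-KO 0 did. All 18 lay lower in NCoR1-KO than in SMRT-KO, 16 of them at an unadjusted p under 0.05. The share of all genes was not counted in these fits. Leaving out any 1 library gave pooled medians from 0.13 to 0.40. Without the 5 libraries, marked by a rule that used this list too, the pooled median was -0.04. Mobp, a myelin protein, ranged from 358 to 1039 TPM in hippocampus knockouts, against 388 to 758 TPM in control, so the groups overlapped. The list scores of single libraries ran from -0.62 to 0.88 in hippocampus knockouts, against -0.44 to 0.37 in control, and from -0.53 to 0.97 in amygdala knockouts, against -1.11 to 0.56 in control.

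Genes of energy supply and of protein synthesis differed little, and their medians had the same sign in both knockouts. Of 30 respiratory chain and ATP synthase genes 28 lay above 0, with a median of 0.04 pooled, 0.04 in NCoR1-KO and 0.04 in SMRT-KO. Atp5b, the catalytic subunit of ATP synthase, averaged 1407 ± 58.3 TPM in hippocampus knockouts, against 1349 ± 29.4 TPM in control, and 1312 ± 61.9 TPM in amygdala knockouts, against 1235 ± 33.4 TPM in control. Of 30 cytosolic ribosomal protein genes 29 lay below 0, with a median of -0.04 pooled, -0.02 in NCoR1-KO and -0.05 in SMRT-KO. Genes of a list share libraries and scale, and the counts were not tested; of all genes 58.5% lay below 0.

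**Figure D4:**
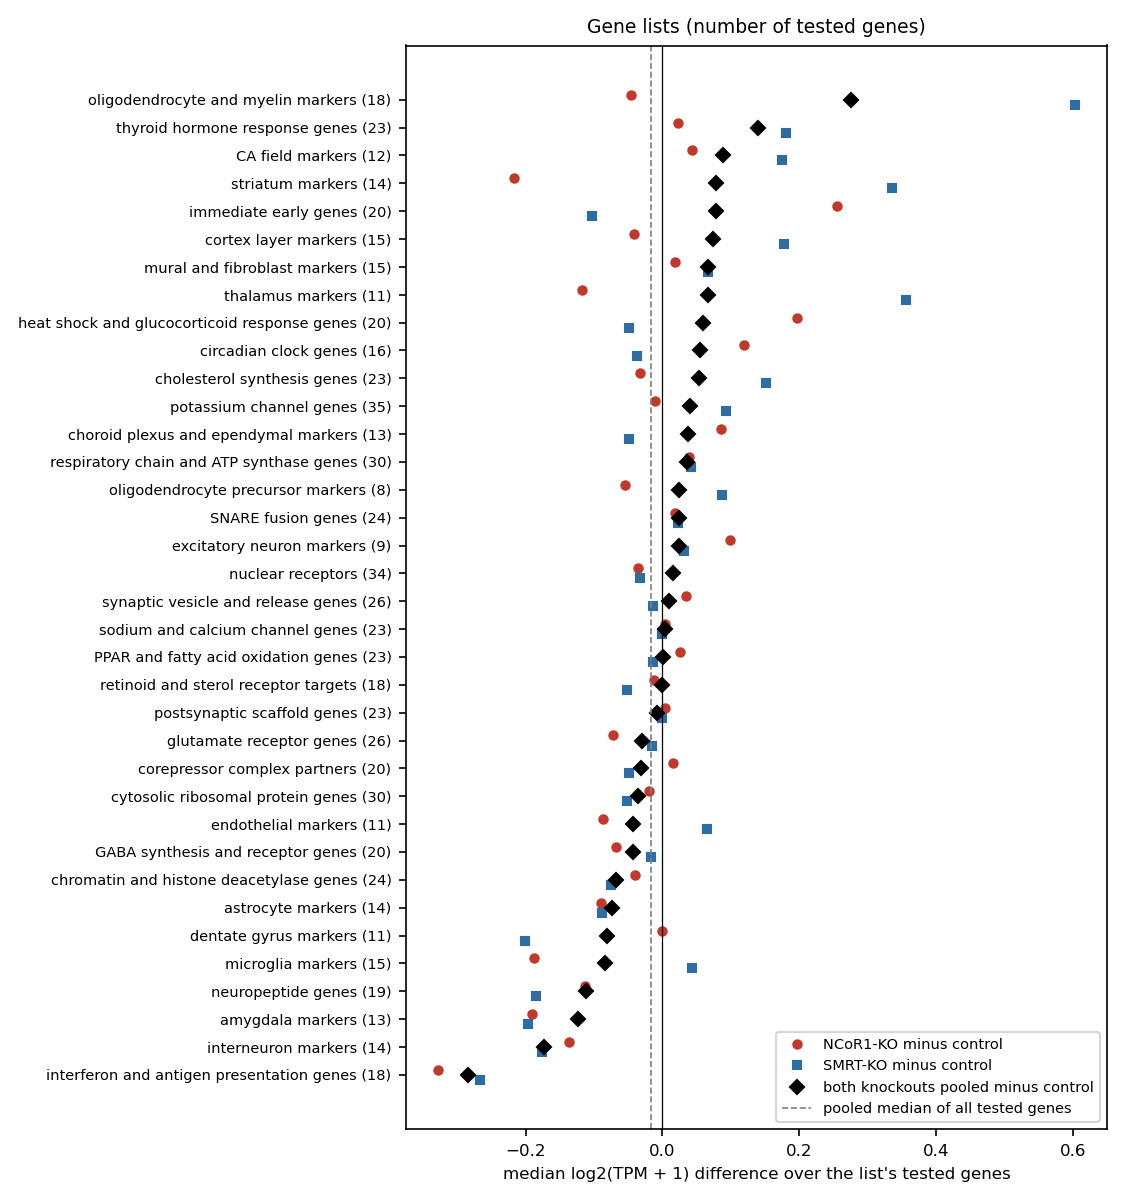
Median log2(TPM + 1) difference from control over the tested genes of each list, for NCoR1-KO (red circles), SMRT-KO (blue squares) and both pooled (black diamonds), with the number of genes in parentheses. The dashed line marks the pooled median of all genes at -0.02. Interferon genes lie lowest at -0.28, and the myelin list lies highest at 0.28, with -0.05 in NCoR1-KO and 0.60 in SMRT-KO.

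The pooled effect did not differ detectably between tissues. For hippocampus minus amygdala 0 genes passed in limma and 321 (2.26%) had an unadjusted p under 0.05, and in each tissue Snap25 was the only gene called (0.00704%). At an unadjusted p under 0.05 there were 817 genes in hippocampus (5.75%) and 946 in amygdala (6.66%). In Wsb1, the difference was -0.12 in hippocampus and -0.22 in amygdala, and the contrast between them was 0.10 with a 95% interval of -0.06 to 0.27.

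Split by genotype, the knockouts gave more calls against each other than their pool gave against control. NCoR1-KO against the 8 controls gave 7 calls (0.0493%), 3 higher (0.0211%) and 4 lower (0.0281%). SMRT-KO against the same controls gave 66 (0.464%), 24 higher (0.169%) and 42 lower (0.296%). Snap25 was the only gene called in both. NCoR1-KO against SMRT-KO gave 367 calls (2.58%), 249 higher (1.75%) and 118 lower (0.83%) in NCoR1-KO. For 336 of these genes (2.36% of all) the control mean lay between the knockouts, so that differences of opposite sign entered the pool. Choosing genes by their difference between the knockouts itself favours this order, so the count is a description only. The order of the counts of 7 and 66 turned round without the 5 libraries that stood apart, which gave 101 calls in NCoR1-KO and 1 in SMRT-KO. The counts also moved widely with 1 library: without hippocampus SMRT-KO 3 the SMRT-KO count was 414 and the count between knockouts 1556, without amygdala SMRT-KO 3 the SMRT-KO count was 1, and without amygdala NCoR1-KO 2 the count between knockouts was 46. With quantile normalization the SMRT-KO calls were 13 higher and 12 lower.

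Clock genes gave 0 pooled calls, and 5 of the 16 tested were called higher in NCoR1-KO than in SMRT-KO, against 1.75% of all genes. Arntl encodes BMAL1, the activator at the centre of the circadian clock, and REV-ERB receptors repress it through NCoR1 by binding sites of the ROR type in its promoter. It stood at 33.6, 31.4 and 34.5 TPM in hippocampus NCoR1-KO and at 26.6, 23.6 and 22.5 TPM in SMRT-KO, against 29.8, 27.0, 27.1 and 25.3 TPM in control. In amygdala it stood at 32.3, 35.4 and 34.4 TPM in NCoR1-KO and at 26.5, 25.7 and 23.3 TPM in SMRT-KO, against 27.8, 28.9, 25.2 and 27.6 TPM in control. The NCoR1-KO libraries were above all others of their tissue, and SMRT-KO overlapped control. Arntl rose by 0.29 ± 0.05 in NCoR1-KO against control (adjusted p = 0.0244) and stood at -0.14 ± 0.05 in SMRT-KO (adjusted p = 0.127). The difference between knockouts was 0.43 ± 0.05 (adjusted p = 0.000368), and the pooled difference was 0.07 ± 0.09 (adjusted p = 0.781).

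Nfil3, a clock repressor that is also under REV-ERB control, differed between knockouts by 0.80 ± 0.13 (adjusted p = 0.00856), and the pooled difference was 0.15 ± 0.17. It stood at 13.8, 17.4 and 14.6 TPM in hippocampus NCoR1-KO and at 8.98, 10.96 and 7.36 TPM in SMRT-KO, against 9.31, 12.7, 8.88 and 9.66 TPM in control. Nr1d1, which encodes REV-ERB alpha itself, differed between knockouts by 0.54 ± 0.09 (adjusted p = 0.0114) and by 0.09 ± 0.12 in the pool. Per1, a clock gene that glucocorticoids also induce, differed between knockouts by 0.46 ± 0.10 (adjusted p = 0.0227) and by 0.03 ± 0.11 in the pool. The time of day of sampling is not in the labels, and its part in these differences was not tested. Higher values in NCoR1-KO than in SMRT-KO were not particular to clock genes, of which 10 lay higher and 6 lower, with a median of 0.15. Of 20 heat shock and glucocorticoid response genes 20 lay higher, with a median of 0.31, and 3 were called, against 1.75% of all genes. Of 20 immediate early genes 19 lay higher, with a median of 0.31, and 1 was called.

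Because REV-ERB recruits NCoR1 at ROR-type sites, the core letters TAGGTCA were searched on both strands in promoter windows of 300 bases, from 250 before to 50 after each start, in RefSeq on GRCm38.p6. The search was chosen after the values were seen. Of 32851 windows in all, 856 (2.61%) held the letters. A match describes the letters and is not a measured binding site. The windows of Arntl (chr7:113207261-113207560, plus strand, 1 of its 2 windows) and Nfil3 (chr13:52980990-52981289, minus strand) held 1 match each and are shown because these genes separate the knockouts. Each is printed 5′ to 3′ on the strand of its gene, with the match in capitals.
Arntl: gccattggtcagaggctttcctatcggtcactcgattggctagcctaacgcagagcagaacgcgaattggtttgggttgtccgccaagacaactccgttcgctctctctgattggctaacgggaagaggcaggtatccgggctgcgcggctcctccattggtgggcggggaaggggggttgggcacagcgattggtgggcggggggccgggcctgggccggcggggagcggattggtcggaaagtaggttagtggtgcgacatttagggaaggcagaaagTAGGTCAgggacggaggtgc
Nfil3: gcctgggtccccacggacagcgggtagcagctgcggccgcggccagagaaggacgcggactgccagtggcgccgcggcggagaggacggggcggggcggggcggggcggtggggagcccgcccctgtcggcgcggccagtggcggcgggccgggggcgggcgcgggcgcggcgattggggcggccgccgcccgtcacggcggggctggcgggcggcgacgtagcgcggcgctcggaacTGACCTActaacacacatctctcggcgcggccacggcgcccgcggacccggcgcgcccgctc
In Arntl the match reads TAGGTCA and begins 30 bases after the start site, and in Nfil3 it reads TGACCTA, the letters of the other strand, and begins 12 bases before the start site. The window of Nr1d1 held no match, nor did those examined of Bok, Ncor1, Mrpl36, Rgs8, Rbm33 and Wsb1. Whether the letters have a part in the differences between the knockouts was not tested.

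Neurofilament genes stood on the other side. Nefm and Nefh encode the medium and heavy subunits of the axon's neurofilaments, and both were called higher in SMRT-KO. Nefm stood at 154, 157 and 152 TPM in hippocampus NCoR1-KO and at 177, 231 and 201 TPM in SMRT-KO, against 141, 136, 144 and 157 TPM in control. In amygdala it stood at 152, 129 and 124 TPM in NCoR1-KO and at 173, 288 and 205 TPM in SMRT-KO, against 123, 119, 168 and 115 TPM in control. The SMRT-KO libraries were the highest of each tissue, with SMRT-KO 2 at the top in both. Nefm rose by 0.61 ± 0.10 in SMRT-KO (adjusted p = 0.0188) and differed by 0.07 ± 0.10 in NCoR1-KO, which gave a pooled difference of 0.34 ± 0.13 (adjusted p = 0.360). Nefh rose by 0.79 ± 0.15 in SMRT-KO (adjusted p = 0.0322), and its pooled difference was 0.41 ± 0.18 (adjusted p = 0.421). Bok, a gene of the BCL2 family, rose by 0.48 ± 0.07 in SMRT-KO (adjusted p = 0.0163) and differed by -0.09 ± 0.07 in NCoR1-KO, for a pooled difference of 0.20 ± 0.12. Without the 5 libraries that stood apart, and likewise without amygdala SMRT-KO 3, Snap25 was the only gene called in SMRT-KO, so Nefm, Nefh and Bok were not called there.

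**Figure D5:**
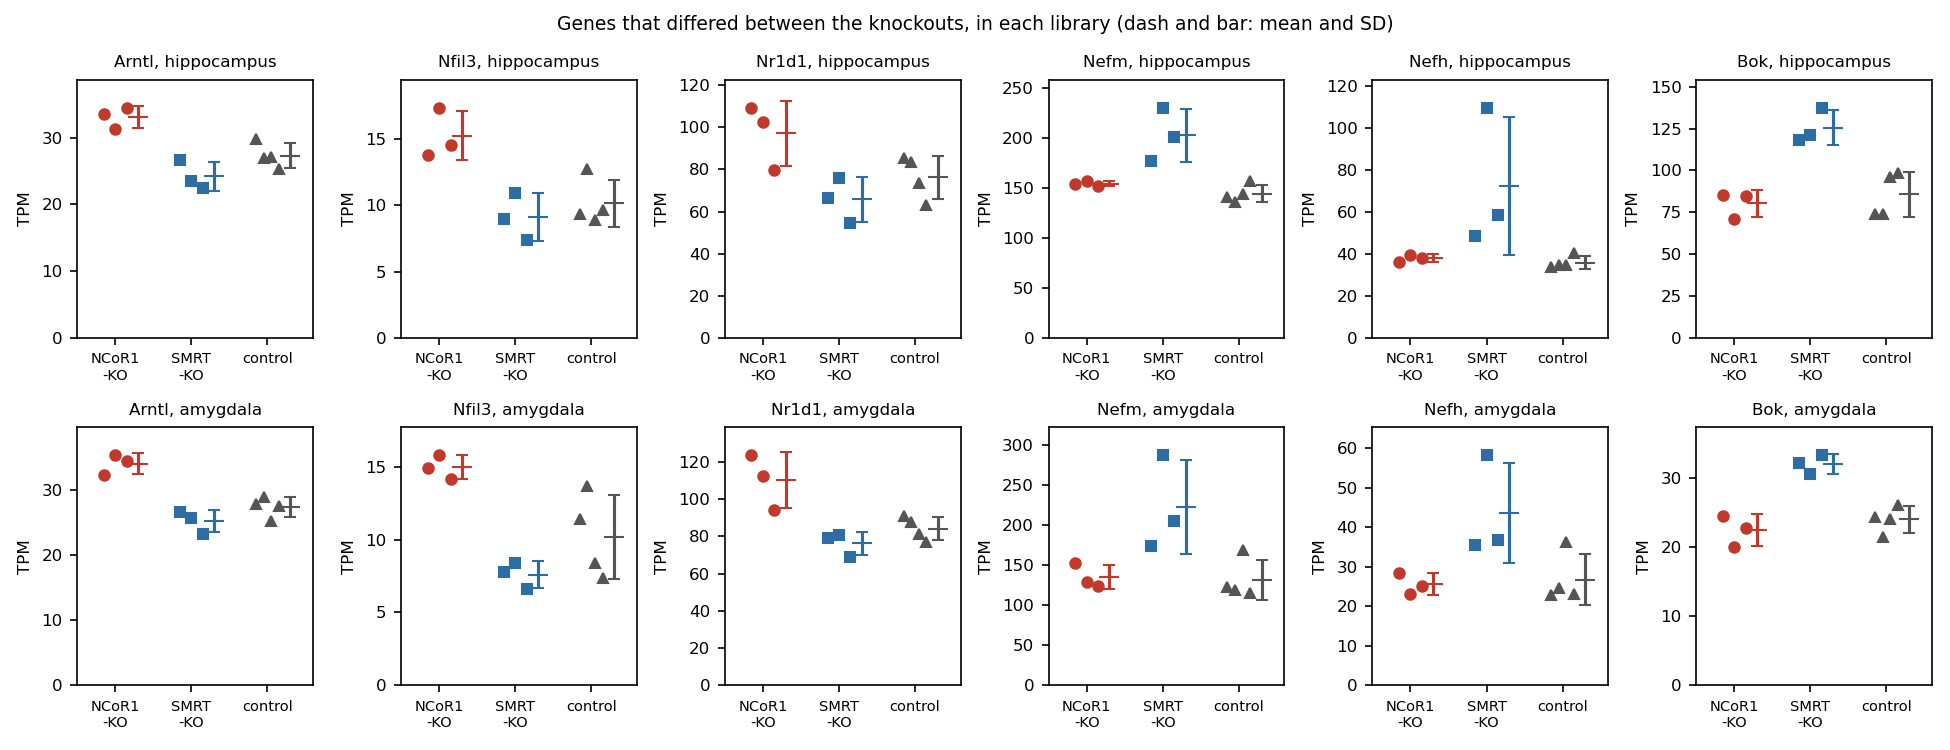
TPM of Arntl, Nfil3, Nr1d1, Nefm, Nefh and Bok in each library of hippocampus (top) and amygdala (bottom), with the mean and SD of each group as dash and bar. By group mean the clock genes are highest in NCoR1-KO, and Nefm, Nefh and Bok in SMRT-KO. Single libraries overlap control for Nr1d1 in hippocampus NCoR1-KO and for Nefh in amygdala SMRT-KO. Nefm spans 173 to 288 TPM in amygdala SMRT-KO against 115 to 168 TPM in control.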

How the data were processed

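Per the labels' protocols, RNA was isolated with an RNeasy lipid kit and sequenced from libraries of the TruSeq stranded mRNA type. The authors deposited TPM values per gene in a table for each tissue. The submitters' processing notes name bcl2fastq, fastp 0.21.0, STAR 2.5.3a, RSEM 1.3.3 and the mm10 build, without saying which step each did. Which gene models were used the labels and notes do not state. TPM keeps no depth, so the precision comes from the spread between libraries.

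From these values log2(TPM + 1) was fitted in limma 3.58.1 (R 4.3.3) with a mean-variance trend, over all 20 libraries. The pooled fit had knockout or control and tissue as terms. The fits by tissue added their interaction, and the fits by knockout had genotype in 3 levels. Adjusted p is Benjamini-Hochberg over the 14210 genes tested, separately in each of 7 comparisons. Exact permutation tests were two-sided and shuffled libraries within tissues. The fitting was tested on simulated data. Coordinates come from GENCODE M21 on GRCm38, in which 21737 of 23412 symbols matched as given and 1273 by an older symbol. Promoter sequences come from RefSeq on GRCm38.p6.

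Genes named were Ncor1, Snap25 and the pooled calls. Where fewer than 6 passed in a direction, genes of smallest p with 1 sign in all 4 combinations were added, up to 6. Also named were the 2 genes of smallest p that did not pass, the 4 most like Snap25, and called genes of the other comparisons. Further genes of the lists were named after their values were seen. The members and the 37 lists were chosen with earlier results of these data known. Alternatives were pseudocounts, filters on low values, quantile normalization, rescaling without Rn45s, sample weights, fits by tissue, replicate blocks and leaving out libraries, of which leaving out those that stood apart by markers was chosen after seeing the data. Predicted and Y-linked genes were counted and not named, and some items are not reported here.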

Additional observations from a re-analysis of the deposited data

Results flagged for a closer look

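Of 54 groups of 4 to 10 libraries examined for the named genes, 5 held a library far from the others, and chance gives about 1 in 20. Abcf2 was 91.4 TPM in hippocampus SMRT-KO 3, against 80.7 to 84.4 TPM in the other hippocampus knockouts. Rbm33 was 25.2 TPM in the same library, against 32.1 to 36.9 TPM in the others. Among controls, Ncor1 was 71.3 TPM in amygdala control 1, against 117 to 127 TPM in the other amygdala controls. Gde1 was 378.5 TPM in amygdala control 4, against 343 to 347 TPM, and Fam184b was 8.10 TPM in hippocampus control 2, against 7.30 to 7.41 TPM. Leaving out any 1 library kept the sign of the pooled differences of Abcf2, Rbm33, Gde1 and Fam184b, and none of the 4 passed then. It kept the fall of Ncor1 in NCoR1-KO, with a log2 difference of -1.49 without amygdala control 1.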

How the results depend on the processing

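The pooled count of 1 was the same under every alternative that left in all libraries and without the 5 libraries that stood apart by markers. Leaving out each library gave 1 to 2 calls, 2 without amygdala NCoR1-KO 2. The hippocampus count of 1 was 0 on the hippocampus libraries alone and 0 without the 5 libraries that stood apart, and 1 when leaving out each library. The amygdala count of 1 was 2 with no filter on low values and 1 to 2 when leaving out each library. The NCoR1-KO count of 7 was 4 with the number as a fixed replicate block, 101 without the libraries that stood apart and 3 to 10 when leaving out each library. The SMRT-KO count of 66 was 24 with no filter, 161 at a mean of at least 5 TPM, 25 with quantile normalization, 317 with the fixed block, 20 with a random block and 1 without the libraries that stood apart, and ranged from 1 to 414 when leaving out each library. The count of 367 between knockouts was 190 with the random block, 135 without the libraries that stood apart and 46 to 1556 when leaving out each library. The causes were not tested. Libraries of both tissues share numbers, but the labels do not say that a number marks an animal, so the numbers were not taken as pairs. The correlation of deviations exceeded 0.1 in 8 of 10 same-number pairs, and 8 of 10 hippocampus libraries correlated best with their own number. If a number marks an animal, the main fit and the permutation within tissues count its 2 libraries as independent, which they would not be. With the replicate block the pooled count stayed 1, and Snap25 differed by -0.78 with the fixed block. With same-number libraries averaged over tissues its exact permutation p was 0.00476, the smallest of 210 arrangements. The pooled differences of Snap25 and the 12 other genes refitted under each alternative kept their sign, as did that of Ncor1 in NCoR1-KO. Depth is unknown, and a median 95% interval of 0.13 on either side limits what the pooled comparison can show.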
